A study of Mus musculus with 15 samples.

Results

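The genes described here are the C-type lectins, Fc receptors and Siglecs of the mouse left ventricle, with the CD300, paired immunoglobulin-like (PIR, LILR and PILR) and SIRP receptors that share their signalling motifs. They were chosen by name: every row whose symbol begins with Clec and a digit, Fcgr, Siglec, Cd300, Lilr, Pilra, Pilrb or Sirp, together with Fcer1g and Pirb, leaving out antisense and pseudogene names ending in os or holding -ps. The rule found 65 of 47069 genes and used no measured value. 3 groups of C57BL/6 mice gave 5 libraries each. The PBS and rHCI groups had a myocardial infarction and, 7 days later, an injection into the heart muscle of PBS or of rHCI, a hydrogel of recombinant human collagen type I, and their hearts were taken 2 days after the injection. The sham group had a sham operation and no treatment, and its hearts were taken at an age-matched 10 weeks. Infarction and injection therefore differ from sham together and cannot be told apart. All hearts were perfused with PBS, and RNA came from ground left ventricle, which mixes infarct, border and remote muscle and every cell type in it.

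Most of these receptors sit on macrophages, neutrophils and dendritic cells and read out antibodies, microbial sugars, sialic acids and products of dying cells. Activating members carry or borrow, through adaptor chains such as FcRγ (Fcer1g) and DAP12 (Tyrobp), an ITAM, a tyrosine motif that recruits the kinase Syk. Inhibitory members carry an ITIM in their own tail, which recruits phosphatases such as SHP-1 (Ptpn6) and SHIP-1 (Inpp5d). The families come as pairs in which a near-identical outer part is joined to opposite signals, and in the infarcted heart they are known from the monocytes and macrophages that clear dead muscle.

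Libraries held 32978702 to 103356830 counts, and levels are given as CPM, the usual rescaling of a gene's count by its library's total, here after TMM scaling. In each list of 5 values the sham libraries come in the order 16, 17, 18, 19, 20, the PBS libraries in the order 2, 6, 9, 12, 14 and the rHCI libraries in the order 1, 3, 7, 11, 13. The tissue labels matched their markers: all 7 cardiomyocyte genes were present in every library, with summed levels of 57255 to 64441 CPM in sham and 27045 to 40399 CPM in PBS. 1 library, PBS 6, held lung genes at 77.3 summed CPM against 2.27 to 3.59 in the other PBS libraries, and it was the highest PBS library for 4 of 53 receptor genes and the lowest for 5. Nothing in the labels says more than that the replicates are biological, and p-values measure the spread between these libraries.

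Against sham, the infarcted ventricle injected with PBS had more transcript of nearly the whole family. 53 of the 65 genes had enough counts to be tested, and by edgeR's quasi-likelihood test 45 were higher and 5 lower at an adjusted p under 0.05, with 3 not called. Over all 16207 genes tested, 36.5% were called higher and 34.9% lower. 40 receptor genes were higher without any overlap between the PBS and sham libraries, which held for 31.6% of all genes. The median log2 fold change was 1.88 over the 53 genes and −0.01 over all genes. With library totals in place of TMM scaling, 46 were higher and 3 lower, while the median over all genes moved to 0.27 and the share of all calls that were higher from 51.2% to 77.4%. Filtering decides which genes were tested, so the counts describe the expressed members only. Clec4e, Clec4d, Sirpb1c and Cd300lf, among others, passed only through the PBS libraries, where they are high. Their place among the 45 is no support for a rise. Of the 12 untested, Clec2f, Clec2h and Clec2j had 0 counts in all 15 libraries and Clec4b2 had 2 counts in all.

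Markers of the cells that carry these receptors moved with them. The 8 macrophage reference genes, among them Adgre1, Csf1r, Cd68, Itgam, Lyz2, Ms4a7 and Cd14, were all higher in PBS, with summed levels of 147.9 to 174 CPM in sham and 559 to 769 CPM in PBS and a median log2 fold change of 2.24. All 6 tested of 8 neutrophil genes were higher, with summed levels of 1.70 to 3.23 CPM in sham and 11.2 to 27.9 CPM in PBS, as were 7 of 8 dendritic cell genes, from 25.8 to 31.0 CPM in sham to 39.7 to 48.7 CPM in PBS. All 7 cardiomyocyte genes were lower, and all 7 fibroblast genes were higher. Beside these counts, 36.5% of all genes were higher and 34.9% lower. In bulk tissue, more cells of a type and more RNA per cell cannot be told apart.

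**Figure D1:**
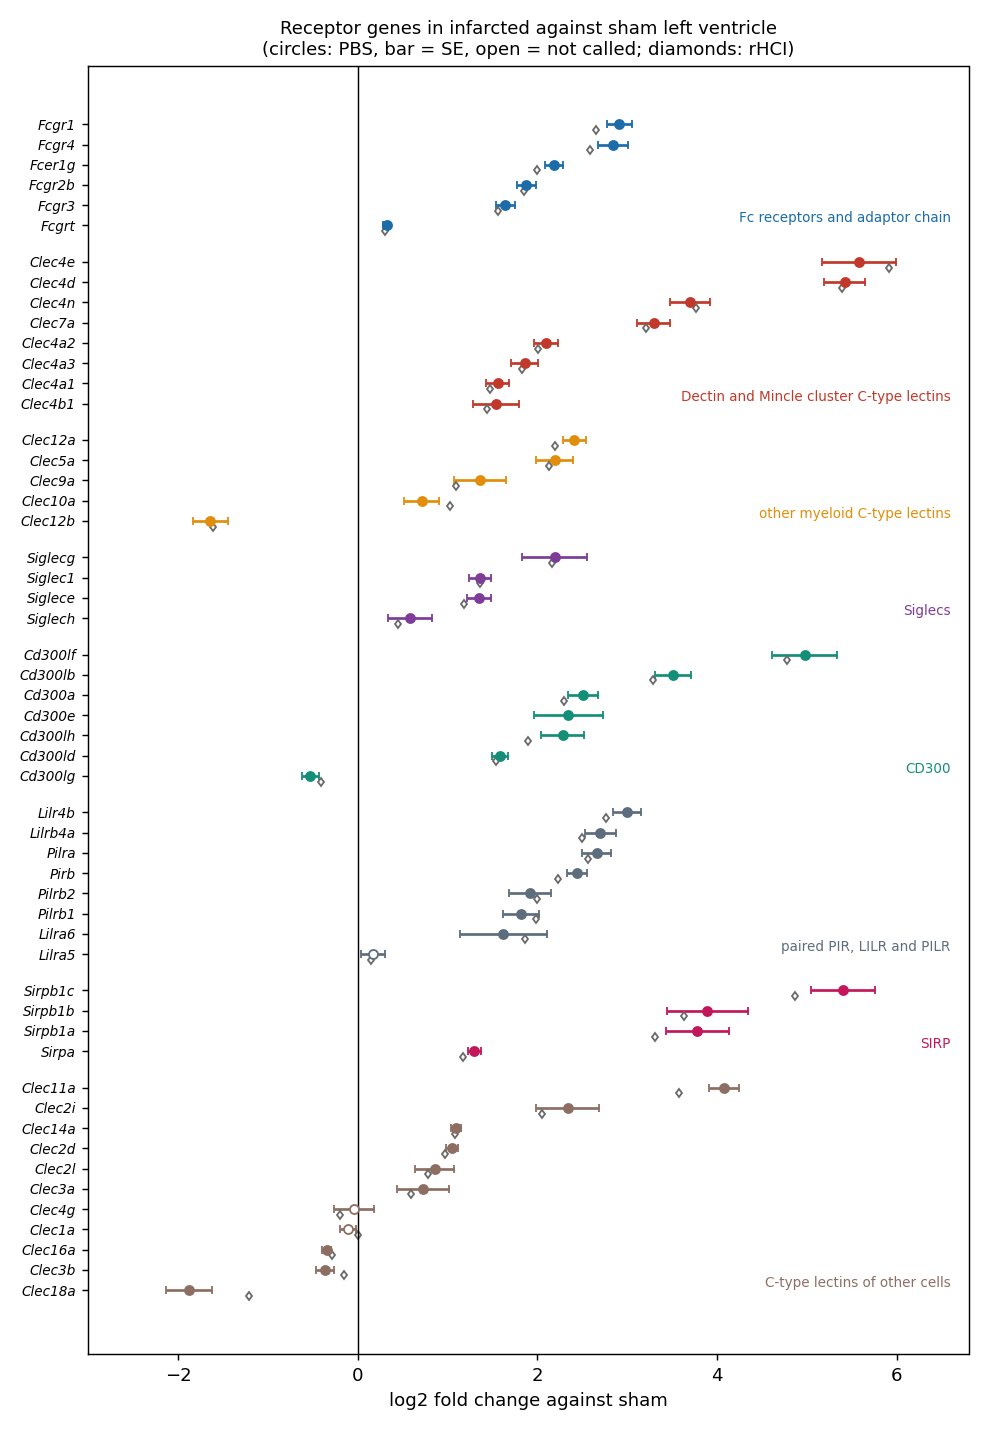
Log2 fold change against sham (horizontal axis) of the 53 receptor genes tested, grouped by family. Circles with standard errors are PBS against sham, open where the gene was not called, and diamonds are rHCI against sham; the largest circles' values are 5.58 for Clec4e and 5.42 for Clec4d, and the lowest is −1.88 for Clec18a.

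The 4 largest rises among all 65 genes were Clec4e, Clec4d, Sirpb1c and Cd300lf, at log2 fold changes of 4.98 to 5.58. They lie on 3 chromosomes. Their promoters are printed because these were the largest rises among members with a promoter entry, and shared regulation was not tested. Each is given as the 250 bases before the RefSeq start site of the gene (RefSeq, GRCm38.p6), 5′ to 3′ on the gene's own strand. Capitals mark GAGGAAG, the core bound by the myeloid factor PU.1, TTGCNNAA, a C/EBP motif, and TATAAA, each on either strand.
Clec4e, chr6:123289872-123290121, minus strand: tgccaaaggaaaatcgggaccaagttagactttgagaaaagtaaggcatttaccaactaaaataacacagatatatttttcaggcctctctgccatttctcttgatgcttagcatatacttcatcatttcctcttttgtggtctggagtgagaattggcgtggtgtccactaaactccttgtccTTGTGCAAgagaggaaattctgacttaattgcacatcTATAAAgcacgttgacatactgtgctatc
Clec4d, chr6:123261857-123262106, plus strand: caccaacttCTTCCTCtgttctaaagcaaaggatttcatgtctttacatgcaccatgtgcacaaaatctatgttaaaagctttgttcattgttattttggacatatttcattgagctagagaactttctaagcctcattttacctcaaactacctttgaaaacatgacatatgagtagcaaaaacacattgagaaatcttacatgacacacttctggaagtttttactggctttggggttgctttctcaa
Sirpb1c, chr3:15848488-15848737, minus strand: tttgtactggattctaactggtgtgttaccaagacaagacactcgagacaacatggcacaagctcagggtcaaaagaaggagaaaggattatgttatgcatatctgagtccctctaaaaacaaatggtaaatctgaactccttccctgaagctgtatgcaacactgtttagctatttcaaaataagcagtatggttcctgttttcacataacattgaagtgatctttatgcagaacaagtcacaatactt
Cd300lf, chr11:115133993-115134242, minus strand: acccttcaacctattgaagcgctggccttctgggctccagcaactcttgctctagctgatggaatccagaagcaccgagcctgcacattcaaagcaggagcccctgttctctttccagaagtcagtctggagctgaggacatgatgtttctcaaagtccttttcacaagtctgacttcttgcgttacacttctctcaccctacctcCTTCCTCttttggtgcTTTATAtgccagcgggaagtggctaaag
Clec4e had the C/EBP motif and TATAAA, Clec4d the PU.1 core alone, Cd300lf the PU.1 core and TATAAA, and Sirpb1c none of the 3 in this window. Over the 43 tested members with an entry, GAGGAAG was found in 39.5% against 12.004% of all 27025 promoters, TTGCNNAA in 27.9% against 10.8%, and the motif of interferon regulatory factors in 18.6% against 3.46%. For TATAAA the shares were 18.6% and 14.3%, for the NF-kB motif 25.6% and 19.7%, and for the AP-1 motif TGANTCA 4.65% and 7.82%. The ETS core GGAAGT was in 34.9% against 22.2%, and GAGGAAGT, which overlaps both GAGGAAG and GGAAGT, in 9.30% against 2.79%. Motifs were searched on both strands, several members are neighbouring copies that share promoter sequence, and a match is a run of letters and not a measured binding site.

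The Fc receptors bind the constant part of antibodies. Their shared adaptor chain Fcer1g was at 4.56, 5.199, 5.09, 4.05 and 4.13 CPM in sham, 23.3, 20.5, 22.2, 21.98 and 16.9 in PBS and 16.5, 21.5, 18.6, 16.4 and 18.3 in rHCI. All PBS and rHCI libraries lay above all sham libraries, and the log2 fold change for PBS was 2.19 ± 0.10 (SE; adjusted p = 1.2e-09). Fcgr1, the high-affinity IgG receptor CD64, was at 1.57, 1.72, 1.33, 1.42 and 1.13 CPM in sham, 13.8, 10.01, 11.2, 9.55 and 9.44 in PBS and 9.44, 9.25, 9.13, 7.98 and 8.803 in rHCI, a rise of 2.91 ± 0.14 (log2, adjusted p = 1.7e-09). Fcgr4, an activating receptor of intermediate affinity, was at 0.8203, 0.778, 0.743, 0.571 and 0.651 CPM in sham, 6.44, 4.97, 5.75, 5.04 and 3.599 in PBS and 4.06, 4.496, 4.505, 4.603 and 3.67 in rHCI and rose by 2.84 ± 0.17 (adjusted p = 1.0e-08). Both groups of infarcted hearts stood clear of sham, by 7.52-fold for Fcgr1 and 7.17-fold for Fcgr4 in PBS. Fcgr3, the low-affinity activating receptor, was at 11.3, 12.2, 13.2, 12.1 and 10.1 CPM in sham, 39.9, 34.4, 39.7, 41.6 and 28.6 in PBS and 32.2, 42.2, 37.3, 30.9 and 29.8 in rHCI. Its rise, 1.64 ± 0.10 (adjusted p = 1.8e-08), was smaller. Fcgr2b, the inhibitory IgG receptor with an ITIM, was at 9.63, 10.2, 10.2, 10.1 and 8.59 CPM in sham, 43.7, 32.8, 39.7, 35.5 and 27.8 in PBS and 37.01, 39.1, 34.2, 29.1 and 34.9 in rHCI and rose by 1.88 ± 0.11 (adjusted p = 8.8e-09). Fcgrt, the neonatal Fc receptor that recycles IgG and albumin and is not limited to myeloid cells, was at 83.6, 76.4, 78.9, 79.8 and 79.4 CPM in sham, 101, 103, 99.1, 99.5 and 96.6 in PBS and 97.9, 95.4, 101, 96.6 and 97.8 in rHCI. Its groups did not overlap either, but its log2 fold change was only 0.32 ± 0.039 (adjusted p = 7.3e-06). All 6 genes of this family were called higher.

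Levels were also divided by length, taken as all annotated exons of a gene joined, which need not be the length of the transcript expressed. This length was 5790 bases for Fcgr2b and 1736 for Fcgr3, so comparisons between genes depend on it. Per kilobase of exon, the mean levels in sham were 37.9 CPM/kb for Fcgrt, 6.79 for Fcgr3, 5.27 for Fcer1g, 1.68 for Fcgr2b, 0.567 for Fcgr4 and 0.554 for Fcgr1. In PBS they were 47.5, 21.2, 23.99, 6.198, 4.11 and 4.17 CPM/kb in the same order of genes. Fcgr1 and Fcgr4 were thus the least abundant of the 4 IgG receptors per length in all 3 groups, rHCI included at 3.45 and 3.398 CPM/kb. Fcgr3 shares 5.42% of its 75-base windows with Fcgr2b, and an exon of Fcgr2b overlaps an antisense gene, Gm38204, so a small part of their reads cannot be assigned with certainty.

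**Figure D2:**
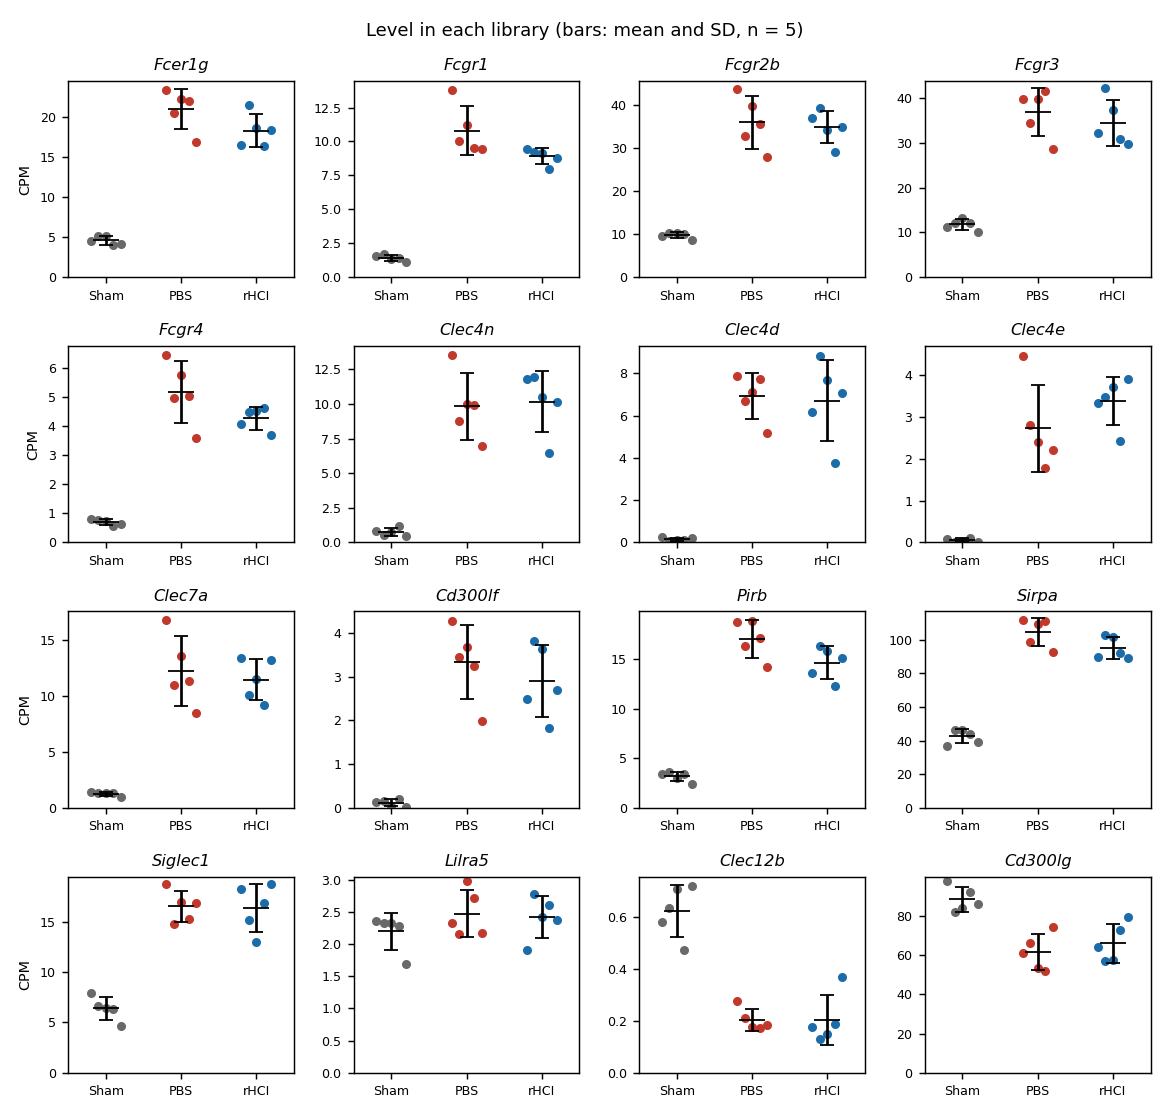
Level in CPM (vertical axis, from 0) of 16 receptor genes in each of the 15 libraries, with the mean and SD of each group of 5. The 5 PBS and 5 rHCI libraries lie above all sham libraries for 13 of the 16 genes, overlap sham for Lilra5, and lie below sham for Clec12b and Cd300lg.

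The C-type lectins of the Dectin and Mincle gene clusters sense sugars and lipids of microbes and material from dead cells. Clec4e (Mincle), which binds mycobacterial glycolipid and the nuclear protein SAP130 of dying cells, was at 0.0941, 0.0205, 0.0381, 0.118 and 0.0112 CPM in sham, 4.47, 2.802, 2.399, 1.78 and 2.21 in PBS and 3.34, 3.48, 3.72, 2.43 and 3.91 in rHCI. Clec4d (MCL), the partner chain that Mincle pairs with, was at 0.242, 0.0614, 0.0953, 0.138 and 0.202 CPM in sham, 7.897, 6.696, 7.13, 7.73 and 5.19 in PBS and 6.16, 8.84, 7.67, 3.76 and 7.07 in rHCI. These 2 genes went from near the detection limit to several CPM: sham libraries held 1 to 7 reads of Clec4e and 3 to 18 of Clec4d, against 133 to 305 and 288 to 729 in PBS. The log2 fold changes were 5.58 ± 0.41 (adjusted p = 8.7e-08) and 5.42 ± 0.23 (adjusted p = 6.1e-10). Clec4n (Dectin-2), a receptor for fungal mannans that signals through FcRγ, was at 0.8203, 0.573, 0.762, 1.16 and 0.494 CPM in sham, 13.5, 8.75, 9.99, 9.897 and 6.97 in PBS and 11.8, 11.9, 10.5, 6.48 and 10.1 in rHCI and rose by 3.701 ± 0.22 (adjusted p = 1.3e-08). Clec7a (Dectin-1), the β-glucan receptor, was at 1.36, 1.35, 1.296, 1.32 and 0.9198 CPM in sham, 16.8, 10.9, 13.6, 11.3 and 8.49 in PBS and 13.3, 10.1, 11.5, 9.16 and 13.2 in rHCI and rose by 3.29 ± 0.18 (adjusted p = 6.3e-09). Groups were clear of sham for all 4. The other tested genes of these clusters rose less: Clec4a2 (DCIR), which carries an ITIM, by 2.096 ± 0.14, Clec4a3 by 1.86 ± 0.15, Clec4a1 by 1.56 ± 0.13 and Clec4b1 by 1.54 ± 0.26. All 8 tested of 10 were called higher, with a median of 2.70. Clec4a4 and Clec4b2 had 24 and 2 counts over all 15 libraries and were not tested.

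Neutrophil markers varied among the infarcted hearts, and Clec4e, Clec4d, Sirpb1c and Cd300lf are also receptors of neutrophils. The neutrophil sum was highest in PBS 2 (27.9 CPM), which also had the highest PBS values of all 4 genes. It was lowest in PBS 12 (11.2 CPM), which had the lowest Clec4e (1.78 CPM) but the second highest Clec4d (7.73 CPM), whereas Clec4d (5.19 CPM), Sirpb1c (0.697 CPM) and Cd300lf (1.99 CPM) were lowest in PBS 14, where the sum was 13.997 CPM. Among the rHCI libraries, rHCI 11 was lowest for the sum, at 10.8 CPM, and for all 4 genes. The sum was highest in rHCI 7 (23.4 CPM), which was highest for none of them: Clec4e and Sirpb1c were highest in rHCI 13, and Clec4d and Cd300lf in rHCI 3. The part of neutrophil number in the rise of these genes was not tested.

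Along the chromosome, 9 of these lectins form a 368-kb cluster on chromosome 6 (GRCm38), from Clec4a1 to Clec4e. In that order the log2 fold changes were 1.56 for Clec4a1, 1.86 for Clec4a3, 1.54 for Clec4b1, 2.10 for Clec4a2, 3.70 for Clec4n, 5.42 for Clec4d and 5.58 for Clec4e. The 3 genes with the largest rises were thus the 3 at the far end, with gene midpoints 317 to 364 kb from the cluster's start. A second chromosome 6 cluster of 7 genes over 292 kb was mixed: Clec2d rose by 1.04, Clec12a by 2.41, Clec9a by 1.36 and Clec7a by 3.29, while Clec12b, between Clec12a and Clec9a, fell by 1.64, and Clec1a was at −0.11. In the 244-kb CD300 cluster on chromosome 11, the largest values were those of Cd300lf (4.98) and Cd300lb (3.51), which lie 235 and 39 kb from the start with smaller changes between them.

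**Figure D3:**
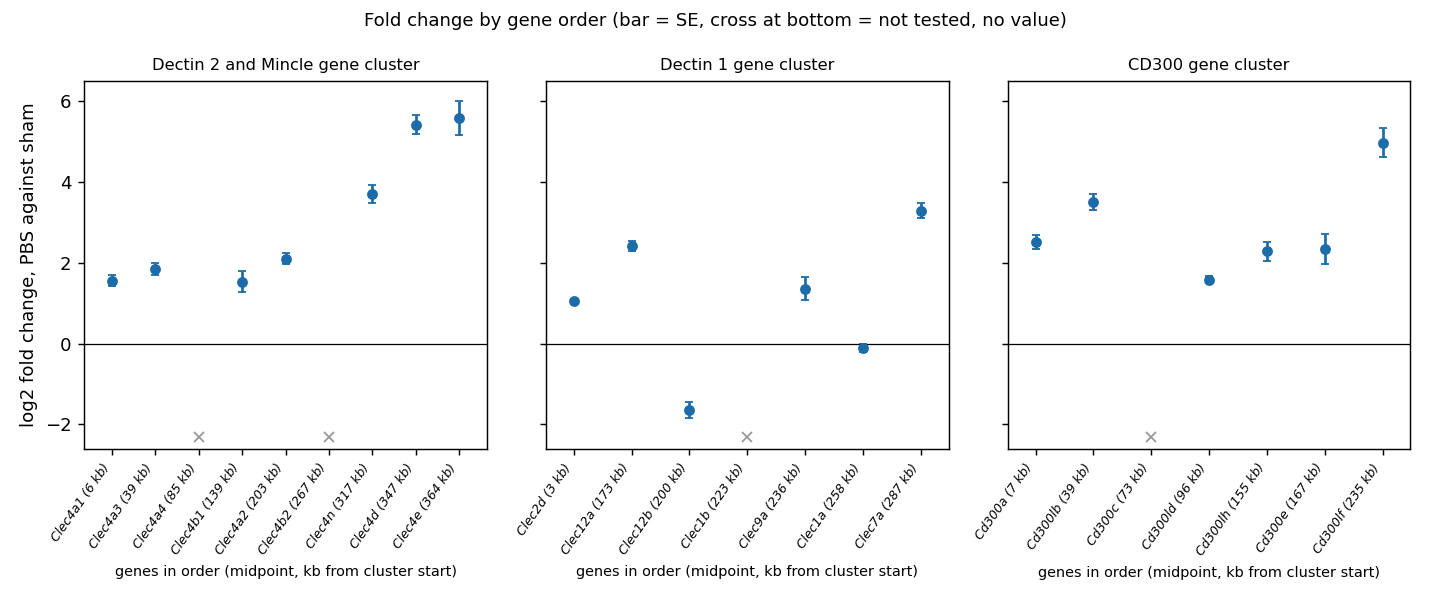
Log2 fold change for PBS against sham (vertical axis, bar = SE) of the genes of 3 clusters in chromosome order, with each gene's midpoint in kb from the cluster's first base; crosses at the bottom mark genes that were not tested and have no value. In the Dectin 2 and Mincle cluster the values run from 1.54 at Clec4b1 to 5.58 at Clec4e, and in the Dectin 1 cluster Clec12b, at −1.64, lies between higher genes.

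The other C-type lectins of myeloid cells went both ways. Clec12a (MICL), an ITIM receptor that recognises uric acid crystals, was at 1.84, 1.66, 1.45, 1.89 and 1.48 CPM in sham, 10.7, 8.304, 9.01, 9.53 and 6.92 in PBS and 7.59, 7.59, 8.11, 7.48 and 7.16 in rHCI and rose by 2.41 ± 0.13 (adjusted p = 4.2e-09). Clec5a (MDL-1), which couples to DAP12, was at 1.18, 1.08, 0.724, 1.38 and 0.5496 CPM in sham, 5.21, 4.12, 4.66, 4.62 and 3.71 in PBS and 4.26, 4.57, 4.405, 3.54 and 4.43 in rHCI and rose by 2.19 ± 0.21 (adjusted p = 8.0e-07). For both genes every infarcted heart was above every sham heart. Clec10a, a galactose-binding lectin of macrophages and dendritic cells, was at 1.78, 2.37, 1.43, 1.77 and 1.53 CPM in sham, 3.78, 2.61, 1.82, 2.85 and 3.57 in PBS and 3.75, 2.41, 3.22, 3.303 and 5.26 in rHCI. Its PBS libraries overlapped sham and its rise was 0.71 ± 0.20 (adjusted p = 0.005196). Clec9a (DNGR-1), the receptor of cross-presenting dendritic cells for exposed actin of dead cells, was at 0.157 to 0.532 CPM in sham and 0.588 to 1.13 CPM in PBS, a rise of 1.36 ± 0.29. Its exons overlap those of Clec1b by 184 bases on the same strand. Clec12b, an inhibitory relative of Clec12a, was the exception, at 0.578, 0.634, 0.705, 0.472 and 0.718 CPM in sham, 0.274, 0.211, 0.176, 0.174 and 0.182 in PBS and 0.177, 0.1295, 0.1502, 0.188 and 0.369 in rHCI. Its sham libraries lay above all others, and it fell by 1.64 (SE 0.20, adjusted p = 6.5e-06) on the log2 scale. 4 of the 5 tested of 7 genes were called higher and 1 lower. Clec4f, the Kupffer cell lectin, had 32 counts in all, and Clec1b, the platelet receptor for podoplanin, had 160, and neither was tested here.

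Siglecs bind sialic acids on the body's own glycans. Siglec1 (CD169), an adhesion receptor of tissue macrophages with no inhibitory motif, was at 7.93, 6.63, 6.46, 6.34 and 4.68 CPM in sham, 18.7, 14.8, 16.97, 15.2 and 16.8 in PBS and 18.3, 15.1, 12.9, 16.8 and 18.8 in rHCI and rose by 1.36 ± 0.12 (adjusted p = 3.5e-07). Siglece, an ITIM receptor of neutrophils and macrophages, was at 1.24, 1.49, 1.47, 1.397 and 0.942 CPM in sham, 3.78, 3.26, 3.23, 3.11 and 3.18 in PBS and 2.37, 3.55, 2.87, 3.13 and 2.64 in rHCI and rose by 1.35 ± 0.13 (adjusted p = 1.1e-06). Neither gene's infarcted libraries overlapped sham. Siglech, a marker of plasmacytoid dendritic cells, was at 0.323, 0.409, 0.476, 0.256 and 0.213 CPM in sham, 0.356, 0.524, 0.565, 0.592 and 0.381 in PBS and 0.294, 0.333, 0.651, 0.376 and 0.572 in rHCI, with overlapping groups. Its log2 fold change of 0.58 ± 0.24 only just passed (adjusted p = 0.0464) and did not pass in 12 of 19 other settings, among them DESeq2 (adjusted p = 0.0857) and the fits without Sham 16, 19 or 20 or without PBS 6, 9 or 12. Siglecg, an inhibitory Siglec of B cells, rose by 2.19 ± 0.36 from 0.0561 to 0.256 CPM in sham to 0.498 to 0.877 CPM in PBS. Of 6 B and plasma cell genes, 4 were higher in PBS, only 1 of them without overlap, 1 was lower and 1 was not called. Of all genes, 36.5% were higher and 34.9% lower. Summed levels of the 6 genes were 2.53 to 8.06 CPM in sham and 6.16 to 19.8 CPM in PBS. The part of B cells in the Siglecg result was not tested. Siglecf, known from eosinophils, had 12 counts in sham and 85 in PBS and was below the filter in this comparison. Siglec15 had 0 counts in sham and 7 in PBS.

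The CD300 receptors bind lipids that appear on dying cells. Cd300lf, an ITIM receptor, was at 0.134, 0.164, 0.0381, 0.197 and 0.0224 CPM in sham, 4.28, 3.45, 3.69, 3.25 and 1.99 in PBS and 2.49, 3.81, 3.64, 1.83 and 2.69 in rHCI and rose by 4.98 ± 0.36 (adjusted p = 7.2e-08). Cd300lb, which couples to DAP12, was at 0.619, 0.594, 0.705, 0.748 and 0.292 CPM in sham, 6.91, 6.49, 6.99, 7.45 and 4.98 in PBS and 5.69, 6.85, 6.11, 4.43 and 4.95 in rHCI and rose by 3.51 ± 0.20 (adjusted p = 8.2e-09). Neither had a sham library within reach of an infarcted one. Cd300a, an ITIM receptor for phosphatidylserine, was at 2.99, 2.01, 1.73, 1.95 and 2.24 CPM in sham, 15.4, 11.7, 14.01, 13.3 and 8.94 in PBS and 9.46, 12.3, 12.4, 9.52 and 10.3 in rHCI and rose by 2.51 ± 0.17 (adjusted p = 3.0e-08). Cd300ld, which pairs with FcRγ, was at 4.88, 4.85, 5.33, 4.703 and 3.97 CPM in sham, 14.4, 14.2, 14.9, 15.7 and 11.9 in PBS and 13.6, 14.1, 14.8, 12.2 and 13.8 in rHCI and rose by 1.58 ± 0.091 (adjusted p = 8.7e-09). Cd300ld was the most abundant CD300 gene of the chromosome 11 cluster per length in sham, at 1.795 CPM/kb, against 0.461 for Cd300a, 0.203 for Cd300lb and 0.0216 for Cd300lf. In PBS the 4 values were 5.37, 2.67, 2.25 and 0.647 CPM/kb. Cd300e rose by 2.35 ± 0.38 and Cd300lh by 2.28 ± 0.24, both under 1 CPM, and 81.5% of the 75-base windows of Cd300lh, which the GENCODE M21 annotation names Cd300ld3, also occur in Cd300ld5. Cd300lg (nepmucin), a CD300 relative made by endothelial cells, was at 97.6, 82.1, 84.1, 91.9 and 85.96 CPM in sham, 60.98, 66.2, 53.6, 52.1 and 74.4 in PBS and 63.9, 56.8, 57.2, 72.8 and 79.3 in rHCI. Here the sham libraries lay above all others, and the log2 fold change was −0.53 ± 0.091 (adjusted p = 1.6e-04). Of 8 endothelial genes, 5 were higher in PBS and none was lower, against 36.5% and 34.9% of all genes. Their summed levels were 818 to 945 CPM in sham and 944 to 1082 CPM in PBS. The part of endothelial content in the Cd300lg result was not tested.

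The paired receptors of the PIR, LILR and PILR families bind MHC class I and sialylated glycoproteins. Pirb, the inhibitory partner of the PIR pair, was at 3.36, 3.64, 2.99, 3.38 and 2.4004 CPM in sham, 18.8, 16.4, 18.9, 17.2 and 14.2 in PBS and 13.7, 16.3, 15.9, 12.3 and 15.2 in rHCI and rose by 2.44 ± 0.12 (adjusted p = 1.6e-09). Pilra, the inhibitory partner of the PILR pair, was at 0.484, 0.798, 0.648, 0.551 and 0.471 CPM in sham, 4.58, 3.64, 3.63, 3.47 and 3.18 in PBS and 3.296, 3.87, 3.604, 2.52 and 3.82 in rHCI and rose by 2.66 ± 0.16 (adjusted p = 1.4e-08). Groups were clear of sham for both. Lilrb4a (gp49B), an ITIM receptor, was at 2.72, 2.74, 3.37, 1.97 and 1.57 CPM in sham, 18.7, 15.2, 17.1, 16.4 and 12.5 in PBS and 13.03, 15.7, 16.02, 11.6 and 12.6 in rHCI and rose by 2.700 ± 0.18 (adjusted p = 2.6e-08). Its neighbour Lilr4b (gp49A), which lacks the ITIM, was at 1.86, 1.78, 1.66, 1.48 and 1.11 CPM in sham, 13.6, 11.95, 14.3, 13.5 and 9.14 in PBS and 10.2, 12.1, 12.2, 8.798 and 9.62 in rHCI and rose by 2.99 ± 0.16 (adjusted p = 3.3e-09). The identifier counted here as Lilrb4a is named Gm49339 in GENCODE M21, where its exons overlap separate genes named Lilrb4a and Lilr4b on the same strand. Of its 75-base windows, 94.1% are also found in that Lilrb4a and 26.9% in that Lilr4b. The identifier counted here as Lilr4b is not in GENCODE M21. Reads may therefore be split between these genes, and which receptor each of the 2 rows measures, with or without the ITIM, is uncertain. The activating PILR genes Pilrb1 and Pilrb2 rose by 1.82 ± 0.20 and 1.92 ± 0.23, and Lilra6, of the activating PIR-A group, by 1.62 ± 0.49 with overlapping libraries. Lilra5, an activating receptor, was the 1 gene of these 8 that was not called, at 1.68 to 2.35 CPM in sham and 2.16 to 2.98 CPM in PBS. Its log2 fold change was 0.17 ± 0.13 (95% interval −0.14 to 0.48, adjusted p = 0.2597). Exons of Pilra overlap those of Zcwpw1 on the other strand, and Pirb and Lilra6 share windows with each other and with other PIR-A genes, so their values carry that uncertainty.

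Of the SIRP genes, Sirpa, the ITIM receptor through which CD47 holds back phagocytosis, was by far the most abundant, at 37.03, 46.1, 46.4, 44.1 and 39.1 CPM in sham, 112, 98.995, 109, 111 and 93.002 in PBS and 89.8, 103, 101, 92.4 and 89.4 in rHCI. It rose by 1.298 ± 0.075 (adjusted p = 8.4e-09) with no overlap, and its ligand gene Cd47 by 0.34 ± 0.046. Sirpb1c, an activating relative that couples to DAP12, was at 0.0403, 0.0205, 0, 0.0197 and 0.0224 CPM in sham, 1.34, 0.974, 1.16, 0.963 and 0.697 in PBS and 0.628, 0.629, 0.751, 0.579 and 0.923 in rHCI, from 0 to 3 reads in the sham libraries and 42 to 106 in the PBS libraries. Its log2 fold change was 5.405 ± 0.35 (adjusted p = 2.6e-08). Sirpb1b and Sirpb1a rose by 3.89 ± 0.45 and 3.78 ± 0.35 from below 0.2 CPM. Like Sirpb1c, both passed the filter only through the PBS libraries, so their call is no support for a rise. The 3 Sirpb1 genes are near-copies, with 15.7 to 44.2% of their windows shared, and the split of reads among them is uncertain.

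The remaining lectins belong to other cells or are secreted, and they showed no common direction: 6 of 11 tested were higher and 3 lower. Clec11a, a secreted growth factor of marrow stroma, was at 1.05, 1.92, 1.37, 1.67 and 1.42 CPM in sham, 27.01, 27.1, 26.7, 25.96 and 17.1 in PBS and 15.99, 23.8, 20.4, 15.4 and 11.5 in rHCI and rose by 4.08 ± 0.16 (adjusted p = 5.0e-10). Clec14a, an endothelial receptor of vessel growth, was at 16.8, 15.4, 15.9, 15.4 and 15.3 CPM in sham, 34.1, 33.9, 31.8, 37.2 and 31.2 in PBS and 32.2, 35.8, 34.6, 32.8 and 31.2 in rHCI and rose by 1.09 ± 0.056 (adjusted p = 3.0e-09). Clec2d, a ligand for an inhibitory NK cell receptor, was at 10.4, 10.6, 10.97, 9.17 and 9.31 CPM in sham, 21.1, 22.4, 21.6, 20.1 and 19.02 in PBS and 21.6, 18.4, 19.7, 18.1 and 20.5 in rHCI and rose by 1.04 ± 0.066 (adjusted p = 1.9e-08). All 3 had groups clear of sham. Clec2i rose by 2.34 ± 0.35 and Clec2l by 0.85 ± 0.22, both under 1.2 CPM in every library. The call on Clec3a (0.72 ± 0.29, adjusted p = 0.0388) did not hold in 11 of 19 other settings, among them the fits without Sham 16, 17 or 19 or without PBS 2, 6, 9 or 12. Clec18a was at 1.98, 1.78, 1.98, 1.91 and 2.32 CPM in sham, 0.7403, 0.551, 0.5998, 0.197 and 0.7297 in PBS and 0.942, 0.444, 0.734, 0.986 and 1.18 in rHCI and had the lowest log2 fold change of all members, −1.88 ± 0.26 (adjusted p = 2.1e-05). Clec3b (tetranectin), a secreted plasminogen-binding lectin, was at 45.5, 45.2, 37.02, 52.5 and 39.6 CPM in sham, 37.1, 36.03, 34.97, 27.5 and 35.6 in PBS and 35.9, 30.7, 38.5, 41.7 and 49.7 in rHCI, a change of −0.37 ± 0.10 (adjusted p = 0.00476). Clec16a, a regulator of mitophagy that is a lectin in name only, was at 70.6, 70.4, 68.9, 70.95 and 67.6 CPM in sham, 52.3, 57.9, 52.9, 51.03 and 60.9 in PBS and 59.1, 54.3, 56.96, 55.8 and 58.1 in rHCI, a change of −0.34 ± 0.051 (adjusted p = 4.4e-05). With library totals, which do not correct for the shift over all genes, Clec3b was at −0.093 (adjusted p = 0.412) and Clec16a at −0.072 (adjusted p = 0.149). Clec1a (−0.11 ± 0.090) and Clec4g (−0.040 ± 0.22) were not called, though Clec1a passed without Sham 20 (adjusted p = 0.0375).

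The receptors were next set against the macrophage reference genes of the same library, which shows where a receptor rose more or less than those genes did. The reference, the mean log2 CPM of the 8 genes, rose by 2.28 from sham to PBS (from 3.21 ± 0.14 to 5.49 ± 0.19, SD, n = 5). Tested with limma on log2 CPM minus the reference, 14 of 53 receptors rose more than the reference, 26 rose less or fell, and 13 were not called. Over all 16199 genes, 2.81% rose more and 93.2% less, so most genes of the heart lie on the low side of this measure. Clec4d exceeded the reference by 3.098 ± 0.26 (log2, adjusted p = 3.7e-08), Clec4e by 2.81 ± 0.32 (adjusted p = 9.6e-07), Cd300lf by 2.47 ± 0.33 (adjusted p = 6.1e-06) and Sirpb1c by 2.12 ± 0.20 (adjusted p = 1.5e-07). Clec11a, Clec4n, Cd300lb, Sirpb1a, Clec7a and Sirpb1b followed at 1.75 to 0.94. Smaller excesses were called for Lilr4b (0.68), Fcgr1 (0.60), Fcgr4 (0.50) and Lilrb4a (0.43). Fcer1g (−0.11 ± 0.11), Pirb (0.15 ± 0.10), Clec12a (0.10 ± 0.11) and Cd300a (0.23 ± 0.15) were not called against the reference, though Cd300a was without Sham 16. Pilra (0.32, adjusted p = 0.0501) just missed the threshold and passed in 4 other settings, among them the fits without Sham 17 or PBS 12. Fcgr2b (−0.42 ± 0.10), Fcgr3 (−0.65 ± 0.094), Cd300ld (−0.71 ± 0.093), Clec4a1 (−0.73 ± 0.13), Siglec1 (−0.91 ± 0.13), Siglece (−0.95 ± 0.12) and Sirpa (−0.99 ± 0.11) rose less than the reference while rising against sham. With a second set of 8 macrophage genes (C1qa, C1qb, C1qc, Aif1, Mpeg1, Cx3cr1, Laptm5 and Ctss) all 14 excesses were called again, Lilrb4a narrowly (adjusted p = 0.0483). The named reference genes themselves rose by 1.34 (Csf1r) to 4.01 (Ms4a7), and the mean hides that spread. Clec4d, Clec4e, Cd300lf, Sirpb1c, Sirpb1a and Sirpb1b passed the filter only through the PBS libraries, so their excess carries the same limit as their rise.

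**Figure D4:**
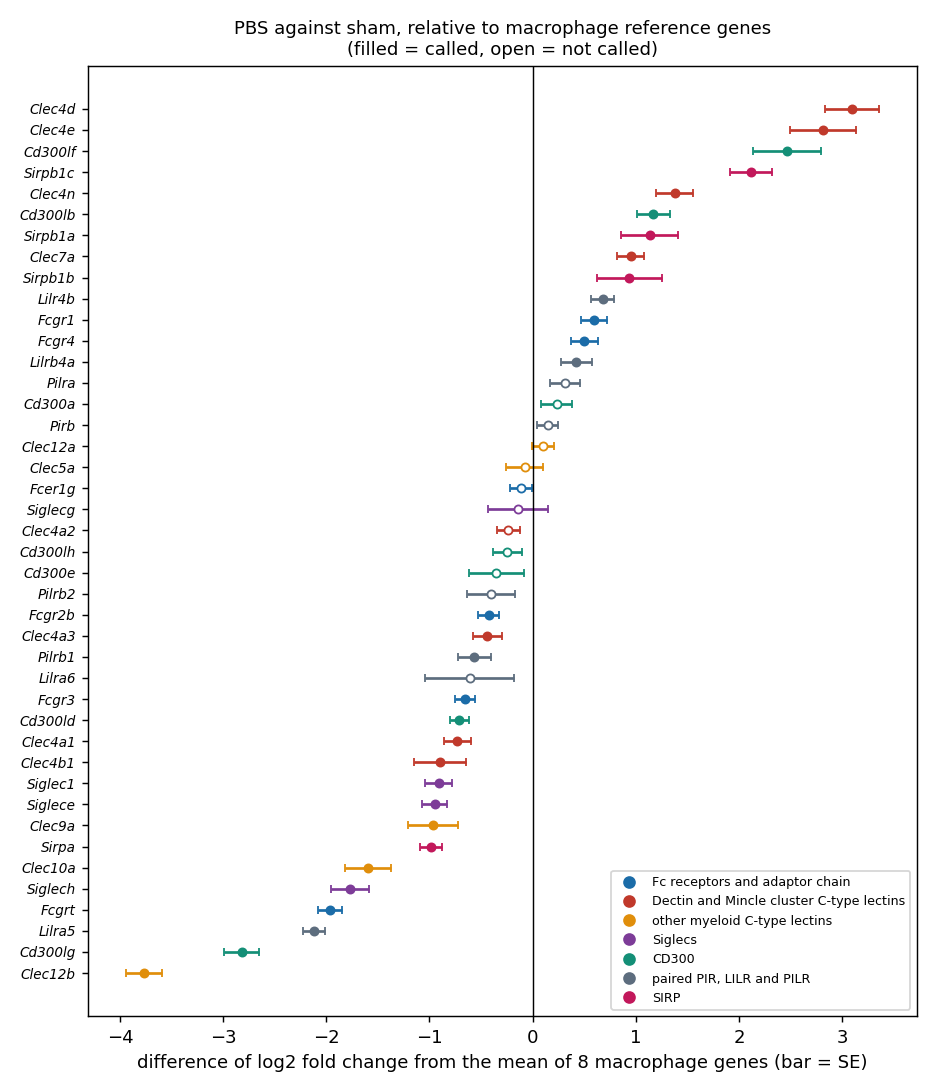
Difference between each myeloid receptor's log2 fold change for PBS against sham and that of the mean of 8 macrophage reference genes (horizontal axis, bar = SE), filled where called and open where not. Clec4d at 3.10 and Clec4e at 2.81 lie farthest above the reference, and Clec12b at −3.77 lies farthest below.

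Counted as classes, 21 of 22 tested activating genes and 11 of 12 tested inhibitory genes were higher, with medians of 2.31 and 2.30, and 36.5% of all genes were higher. Within pairs the balance differed from pair to pair. The log2 ratio of counts of an activating gene to an inhibitory relative was computed within each library, so that library scaling cancels, and compared by a two-sided exact permutation test of 5 against 5 libraries, in which 0.00794 is the smallest possible p, adjusted over 8 ratios and 3 comparisons. Fcgr1/Fcgr2b was at −2.61, −2.57, −2.92, −2.83 and −2.92 in sham and at −1.66, −1.71, −1.83, −1.89 and −1.56 in PBS. The ratio was higher in every PBS library, by 1.04 (exact permutation test, adjusted p = 0.0136). Fcgr4/Fcgr2b likewise rose, from −3.77 ± 0.22 to −2.81 ± 0.086 (SD, n = 5 each, same exact permutation test and adjusted p), while Fcgr3/Fcgr2b fell by 0.23 from 0.27 ± 0.059 to 0.041 ± 0.13. The high-affinity and intermediate-affinity receptors thus gained on the inhibitory one, and the low-affinity receptor lost.

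Clec4n/Clec4a2 rose by 1.63, from −0.41 ± 0.43 to 1.22 ± 0.17, so that on average Dectin-2 passed from fewer to more counts than DCIR. In Sham 19 the ratio was already 0.18. Counts were not divided by exon length (1420 bases for Clec4n, 2926 for Clec4a2), so this crossing is not one of level per length. Sirpb1c/Sirpa rose by 3.99 and Cd300lb/Cd300a by 0.98. Cd300ld/Cd300lf went the other way, from 5.68 ± 1.21 to 2.13 ± 0.31 (log2 fold changes of 1.58 for Cd300ld and 4.98 for Cd300lf). Each of these 4 differences had an adjusted p of 0.0136 by the exact permutation test. Pilrb1/Pilra fell by 0.82 (exact permutation test, adjusted p = 0.0238). 5 of the 8 ratios moved toward the activating gene and 3 toward the inhibitory one. That count depends on which relatives were matched, and 3 ratios share Fcgr2b, so it is not one of independent results. With the CD300 genes matched the other way, Cd300lb (3.51) rose less than Cd300lf (4.98) and Cd300ld (1.58) less than Cd300a (2.51). All 8 are ratios of read counts, not of protein, and sham libraries held few reads of Sirpb1c (0 to 3) and Cd300lf (2 to 10). A ratio was tested where each gene had a mean of at least 10 counts over both groups. Sirpb1c and Cd300lf reached this only through the PBS libraries, where they are high. Sirpb1c/Sirpa and Cd300ld/Cd300lf are thus no support for a shift.

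**Figure D5:**
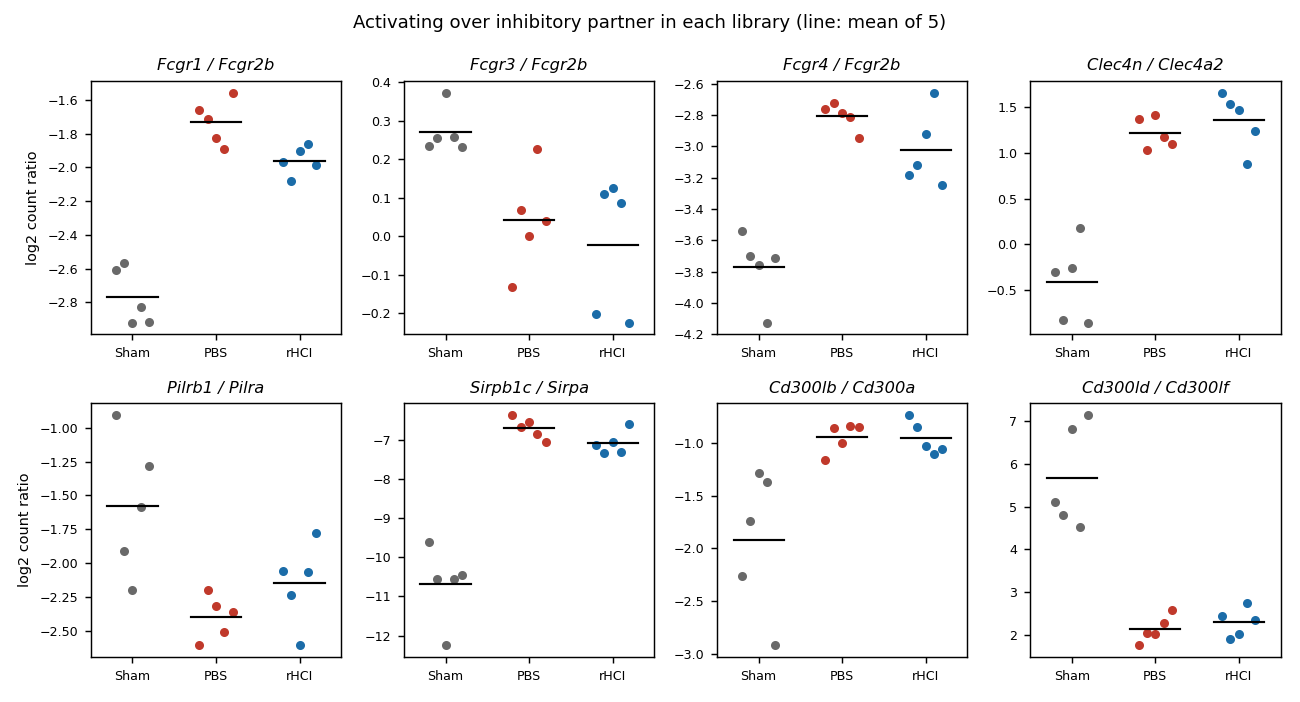
Log2 ratio of counts (vertical axis, own scale in each panel) of an activating gene over an inhibitory relative in each library, with the mean of 5 as a line. Fcgr1/Fcgr2b and Fcgr4/Fcgr2b are higher in all PBS and rHCI libraries than in sham, and Cd300ld/Cd300lf is lower in all of them.

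The signalling genes below the receptors moved with them. For the counts that follow, the shares over all genes were 36.5% higher and 34.9% lower. Of 20 genes of the ITAM pathway, 19 were higher in PBS and 1, Malt1, was not called, with a median of 2.08. The Src-family kinase gene Fgr rose by 4.34 ± 0.21, the PI3-kinase subunit gene Pik3r5 by 3.12 ± 0.15 and the exchange factor gene Vav1 by 2.78 ± 0.13. Tyrobp, which encodes DAP12, rose by 2.16 ± 0.11, and Syk, the kinase all of these routes share, by only 0.33 ± 0.085. Of 10 genes acting behind ITIMs, 8 were higher and 2 lower. Sh2d1b1 rose by 4.51 ± 0.42, Dok1 by 2.66 ± 0.13 and Ptpn6, which encodes SHP-1, by 2.31 ± 0.12, whereas the more widely expressed phosphatase genes Inppl1 (−0.34 ± 0.046) and Ptpn11 (−0.35 ± 0.057) were lower. Among 7 tested of 12 ligand genes, 5 were higher and none lower, including Pdpn, the podoplanin ligand of the receptor encoded by Clec1b (2.54 ± 0.11), and Spn (2.13 ± 0.18). Sap130, whose protein is the ligand of Mincle, was not called (−0.082 ± 0.047). Of 29 tested of 34 related receptors outside the naming rule, 25 were higher and 1, the galactose lectin gene Mgl2 (−0.41 ± 0.12), was lower. The largest rises there were those of Olr1 (6.399 ± 0.33), Trem1 (5.35 ± 0.40) and Trem2 (4.37 ± 0.18).

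The hydrogel question is the comparison of rHCI with PBS, both after infarction and both injected. No receptor gene was called higher or lower: 0 of 55 tested by edgeR at an adjusted p under 0.05, where the background was 0% of 16383 genes, and 0 by DESeq2. 5 of the 55, and 579 of all genes, had an unadjusted p under 0.05. No receptor gene had groups without overlap, against 0.501% of all genes. 41 of the 55 log2 fold changes were below 0 and 14 above, against 8124 below 0 and 8259 above over all genes. The median was −0.093, against 0.001 for all genes. Such counts are of genes measured in the same libraries and not of independent samples. The macrophage reference was lower in rHCI by 0.14 (5.47 ± 0.19 against 5.61 ± 0.19, SD, n = 5), as were 18 of the 20 ITAM pathway genes, while all 7 cardiomyocyte genes were above 0. The part of macrophage content in the receptor values was not tested. Set against the reference, 0 of 55 receptors and 0% of all genes were called by limma.

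The smallest unadjusted p-values on the lower side were those of Clec11a (−0.51 ± 0.19, 95% interval −0.94 to −0.079), Sirpb1c (−0.53 ± 0.20, −0.98 to −0.082), Fcgr1 (−0.27 ± 0.11, −0.51 to −0.025), Sirpb1a (−0.48 ± 0.21, −0.97 to 0.0076) and Pirb (−0.22 ± 0.10, −0.44 to 0.0081). On the higher side they were those of Clec18a (0.65 ± 0.34, −0.13 to 1.43), Clec3b (0.20 ± 0.12), Clec4e (0.33 ± 0.23, −0.19 to 0.85), Clec10a (0.30 ± 0.23, −0.22 to 0.82) and Clec1a (0.10 ± 0.084). All 10 had an adjusted p of 0.871 by edgeR. The intervals use fewer degrees of freedom than edgeR's test and are wider than it implies. Those of Sirpb1a and Pirb thus have ends of opposite sign, though their unadjusted p by edgeR was 0.0436 and 0.0473. The intervals say what size of difference these libraries leave room for: for Fcer1g −0.42 to 0.031, for Fcgr2b −0.31 to 0.23, for Sirpa −0.29 to 0.019 and for Siglec1 −0.24 to 0.23 on the log2 scale, and wider for Clec4d, −0.50 to 0.41, and Cd300lf, −0.72 to 0.33.

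1 of the 8 pair ratios, Fcgr1/Fcgr2b, passed between rHCI and PBS, at an unadjusted p of 0.0159 by the exact permutation test. The adjustment was pooled over all 24 tests. Most of those were comparisons with sham at the smallest possible p, which lowers the adjusted p of the rest. The 8 ratios of rHCI against PBS were not adjusted alone, so this difference is not firm. Fcgr1/Fcgr2b was at −1.97, −2.08, −1.91, −1.86 and −1.99 in rHCI, lower by 0.23 than in PBS (exact permutation test, adjusted p = 0.0238), and the 2 groups overlapped, with PBS 12 at −1.89 between rHCI 11 and rHCI 7. Among the 8 libraries whose descriptions carry the same number, which may mark a batch and which the labels do not explain, the difference was −0.22 (adjusted p = 0.0857), and without rHCI 3 it was −0.20 (adjusted p = 0.0595). The next ratios were Sirpb1c/Sirpa at −0.39 (adjusted p = 0.0847) and Fcgr4/Fcgr2b at −0.22 (adjusted p = 0.1203), by the same exact permutation test.

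Most of the receptor genes were also higher in rHCI than in sham. Both comparisons use the same sham libraries, so the values are only set side by side. 43 of 53 tested receptor genes were higher and 4 lower, against 34.1% and 29.7% of all 16076 genes, and the median was 1.89. 42 were higher with no overlap, against 27.1% of all genes. With library totals the split was 44 and 3, and the share of all calls that were higher moved from 53.4% to 79.0% as the median over all genes moved from 0.002 to 0.22. Clec4e was at 5.91 ± 0.33 for rHCI and 5.58 ± 0.41 for PBS, Clec4d at 5.39 ± 0.31 and 5.42 ± 0.23, Cd300lf at 4.78 ± 0.39 and 4.98 ± 0.36, and Sirpb1c at 4.87 ± 0.34 and 5.405 ± 0.35. Among the IgG receptors the pairs of values were 2.65 and 2.91 for Fcgr1, 2.59 and 2.84 for Fcgr4, 1.56 and 1.64 for Fcgr3 and 1.85 and 1.88 for Fcgr2b. Clec4e, Clec4d, Sirpb1c and Cd300lf passed the filter here only through the rHCI libraries, where they are high. The same was so, among others, of Sirpb1a, Sirpb1b and Cd300lh. It was also so of Siglecf, with 12 counts in all sham libraries and 76 in all rHCI libraries. The place of these genes among the 43 is no support for a rise. Siglecf levels were 0 to 0.0785 CPM in sham and 0.203 to 0.373 CPM in rHCI. The 4 lower genes were Clec12b (−1.61), Clec18a (−1.21), Cd300lg (−0.41) and Clec16a (−0.29). Clec3b was not called (−0.15 ± 0.12, adjusted p = 0.292) but passed without rHCI 13 (−0.26, adjusted p = 0.0479), and Clec3a and Siglech were not called.

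Relative to the macrophage reference, which was 2.15 higher in rHCI than in sham, 15 of 53 receptors rose more and 26 less, against 2.39% and 93.7% of all genes. Clec4e (3.25 ± 0.27), Clec4d (3.12 ± 0.28), Cd300lf (2.36 ± 0.32) and Sirpb1c (1.65 ± 0.21) had the largest excess. These genes, Sirpb1a and Sirpb1b passed the filter only through the rHCI libraries, so their excess carries the same limit as their rise. Pilra (0.34, adjusted p = 0.0416), Lilrb4a (0.36, adjusted p = 0.0381) and Sirpb1b (0.71, adjusted p = 0.0484) were close to the threshold, and each lost its call in 6 to 8 of the other settings: all 3 without Sham 19 or 20 or without rHCI 1, 7 or 13, Pilra and Sirpb1b also without Sham 16 or 18, Lilrb4a without rHCI 11, Sirpb1b without rHCI 3, and Pilra with the second set of macrophage genes. 7 of the 8 pair ratios differed from sham, 5 toward the activating gene and 2 toward the inhibitory one. Pilrb1/Pilra did not pass (−0.57, exact permutation test, adjusted p = 0.0847), though it passed without Sham 18. Sirpb1c and Cd300lf reached the minimum mean count only through the rHCI libraries here, so their ratios are no support for a shift. The choice of pairs limits this count too.

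Within each group, 1 or 2 hearts held the extreme values of many receptors. PBS 2 was the highest PBS library for 31 of the 53 genes and PBS 14 the lowest for 30, Sham 20 was the lowest sham library for 28, and rHCI 11 the lowest rHCI library for 22. The summed macrophage reference was lowest in the same libraries, at 559 CPM in PBS 14, 147.9 CPM in Sham 20 and 555 CPM in rHCI 11, and PBS 2, at 763 CPM, was close to the highest PBS library, PBS 12, at 769 CPM.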

How the data were processed

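The authors deposited a table of raw read counts per gene for the 15 libraries, made from stranded mRNA libraries per the labels' protocols. Trimmomatic, STAR, Cufflinks and edgeR, with the builds GRCm38 and mm10, are named without roles per the submitters' processing notes. How reads were assigned to genes, with which strand option and gene models, is not given in the sources used here. Reads of overlapping or copied genes therefore cannot be placed with certainty. 64 of the 65 genes have their identifier in GENCODE M21, which gave positions and exon lengths.

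From the counts, each pair of groups was fitted with edgeR 4.0.16 in R 4.3.3 on its 10 libraries (TMM, filterByExpr, glmQLFit, glmQLFTest, two-sided, Benjamini-Hochberg over all genes tested, threshold 0.05). The table held 0 columns of values without a matching sample. limma 3.58.1 was fitted to log2 CPM (prior count 2) minus the mean of the macrophage reference; all genes share the error of that reference. Pair ratios used counts plus 0.5 and all 252 arrangements. DESeq2 1.42.0, other scalings, filters, the 12 libraries whose descriptions carry the number 1209 (taken as a possible batch; the labels do not explain it), that number as a covariate, a minimum change of 1.2-fold and each library left out in turn were alternatives. Scripts were tested on simulated data. The members, gene lists and tests were chosen with earlier results of these data known. Values in every library are given for up to 4 called genes per family with the largest changes (at least 1 CPM in the higher group), for called falls, and for 17 receptors fixed by name. For rHCI against PBS, the 5 smallest unadjusted p per direction are named. 1 of the 8 macrophage reference genes and 1 pathway gene are not reported here by name; both stay in the sums, means and counts.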

Additional observations from a re-analysis of the deposited data

Results flagged for a closer look

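Within groups of 5, 6 single libraries stood apart from the other 4 by more than Dixon's 95% critical value of 0.71, out of 108 groups looked at (36 genes in 3 groups). Chance flags about 1 group in 20. Clec11a was at 17.1 CPM in PBS 14, with the other PBS libraries at 26.0 to 27.1 CPM. Clec3b was at 27.5 CPM in PBS 12, with the others at 35.0 to 37.1 CPM. Siglece was at 3.78 CPM in PBS 2, with the others at 3.11 to 3.26 CPM. Clec12b was at 0.369 CPM in rHCI 13, with the others at 0.130 to 0.188 CPM. Sham 20 was low for Clec7a, at 0.920 CPM against 1.30 to 1.36 CPM in the other sham libraries, and high for Sirpb1a, at 0.112 CPM against 0.0269 to 0.0409 CPM.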

How the results depend on the processing

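The counts of called receptor genes stayed within 1.5 times of those reported under every alternative except 2: members lower in PBS than in sham were 3 in place of 5 with library totals, and members lower in rHCI than in sham were 2 in place of 4 against a minimum change of 1.2-fold. Against at least 1 CPM in 5 libraries, which tests fewer genes, 30 members were higher in both comparisons with sham. Clec3b in rHCI against sham turned to 0.059 with library totals (not called in either). Fcgr1/Fcgr2b in rHCI against PBS was −0.224 among the libraries whose descriptions share a number that the labels do not explain (exact permutation test, adjusted p = 0.0857), and −0.272 to −0.188 with 1 library left out. The other rHCI against PBS ratios ranged, with 1 library left out, from −0.312 to −0.165 for Fcgr4/Fcgr2b, from 0.156 to 0.363 for Pilrb1/Pilra, from −0.519 to −0.312 for Sirpb1c/Sirpa and from −0.0687 to 0.0238 for Cd300lb/Cd300a, which changed sign in 6 of its 10 fits; the first 3 passed without rHCI 11, rHCI 7 and rHCI 13 respectively. Pilrb1/Pilra in rHCI against sham ranged from −0.729 to −0.405. The cause of these changes was not tested. No paired analysis was possible because the groups share no replicate numbers. Genes under about 1 CPM, such as Sirpb1c and Clec4e in sham, rest on a few reads per library, which limits the precision of their fold changes.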
